A study of Mus musculus with 20 samples.

Results

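The hypothalamic and stress neuropeptides examined here were 10 genes chosen by symbol: *Pomc*, *Agrp*, *Npy*, *Avp*, *Oxt*, *Crh*, *Hcrt*, *Pmch*, *Trh* and *Sst*. Of these, 9 had a row among the 17211 genes of the expression table, and *Agrp* was not analysed here. RNA was sequenced from the brains of 10 *Winnie* mice and 10 C57BL/6 mice aged 14 weeks, each group labelled as 5 females and 5 males. *Winnie* mice carry a missense mutation in the intestinal mucin gene *Muc2* and develop chronic colitis spontaneously, and the C57BL/6 mice were the unaffected controls. The mutation is carried in every tissue, so a difference in the brain could not be assigned to the colon by the design alone. Each sample was the polyA RNA of a brain from 1 mouse, measured as CPM, the reads of a gene scaled to a common total of reads over the listed genes in each sample. Brain RNA mixes the regions that a sample holds, and fewer cells of a type and less RNA per cell cannot be told apart in it. The share of each region in a sample was not measured.

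The listed genes held 16540303 to 23923769 reads per brain, so that 1 read was worth 0.0418 to 0.0605 CPM and 3 reads, taken as the floor, 0.125 to 0.181 CPM. Intervals from reads cover counting error only. The brain markers *Snap25* (neurons), *Mbp* (myelin) and *Gfap* (astrocytes) were present in every brain, with *Snap25* between 1919 and 2479 CPM. *Xist* and *Ddx3y*, expressed from the inactive X and the Y chromosome, went against the labelled sex in 9 C57BL/6 brains and in 0 *Winnie* brains. Sex was therefore used only as a covariate, once as labelled and once as *Ddx3y*. The fit with the labelled sex does not adjust the C57BL/6 brains for sex as read from the RNA. Library numbers ran from 1 to 10 in C57BL/6 and from 11 to 20 in *Winnie* samples, so library order and genotype cannot be told apart. *Muc2* had no row, and the genotype labels were not checked in the RNA.

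Neuropeptides are cut from longer precursor proteins in the secretory pathway and released from dense core vesicles. Oxytocin and vasopressin are made by magnocellular neurons of the paraventricular and supraoptic nuclei and released in the posterior pituitary, while corticotropin-releasing hormone and thyrotropin-releasing hormone reach the anterior pituitary through the portal vessels. Hypocretin and melanin-concentrating hormone come from separate neurons of the lateral hypothalamus that act on arousal, feeding and sleep, and the *Pomc* and *Agrp*/*Npy* neurons of the arcuate nucleus act in opposite directions on feeding. *Npy* and *Sst* are in addition expressed by many inhibitory interneurons of the cortex, hippocampus and striatum.

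None of the 9 genes differed between *Winnie* and C57BL/6 mouse brains at a false discovery rate (FDR) under 0.05 by limma on log2(CPM + 0.5), and 0 passed by edgeR or DESeq2. In the same limma fit, 2.52% of all 17211 genes passed, 1.52% higher and 1.01% lower in *Winnie* brains. At an unadjusted limma p under 0.05, 1 of 9 passed, *Crh*, which was lower in *Winnie* brains. In that direction 8.08% of all genes passed, in the other 9.53%, and 17.6% in either direction. The threshold of the study, an FDR under 0.001 with a change of at least 1.5-fold, was passed by 0 of the 9 genes and by 0% of all genes, while 1 gene passed it by edgeR and 12 by DESeq2, none of them a neuropeptide of the 9. The log2 fold changes of the 9 genes ran from -0.21 for *Crh* to 0.41 for *Trh*, with a median of 0.01 against 0.00 over all genes. The values of C57BL/6 and *Winnie* brains overlapped for every one of the 9 genes, and among all genes 0.0291% (5 genes) did not overlap. What separated the genes was the spread between brains of one genotype, which set the width of each interval.

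**Figure D1:**
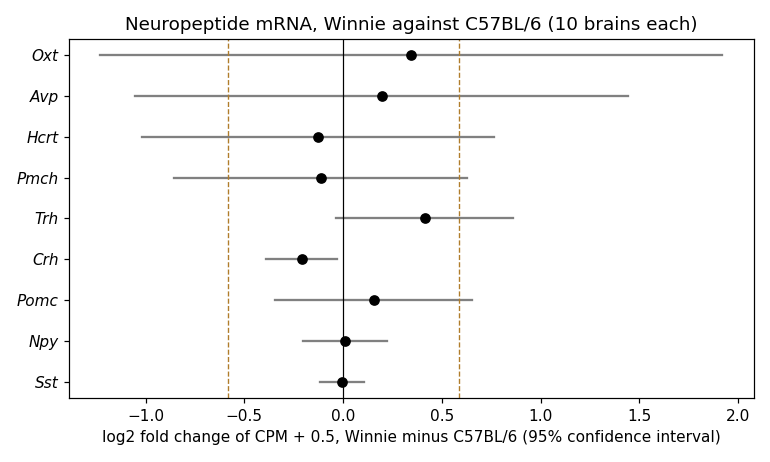
Log2 fold change of CPM + 0.5 in *Winnie* against C57BL/6 brains for the 9 neuropeptide genes (points) with 95% confidence intervals from limma (lines, 10 brains per genotype). The dashed lines mark the 1.5-fold change of the study's threshold; the interval of *Sst*, -0.11 to 0.10, is the narrowest and that of *Oxt*, -1.23 to 1.92, the widest.

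*Oxt* encodes oxytocin with its carrier neurophysin I, the hormone of milk ejection and parturition and a modulator of social behavior (GRCm38, chr2:130576173-130577054, plus strand). In C57BL/6 brains *Oxt* ranged from 0.408 through a median of 6.77 to 13.2 CPM, and in *Winnie* brains from 0 through 12.7 to 15.6 CPM. Low values occurred in both genotypes. In C57BL/6 brains replicates 2, 10, 1 and 6 were at 0.408, 0.519, 1.76 and 1.82 CPM, and in *Winnie* brains replicates 8, 6 and 7 were at 0, 0.705 and 1.66 CPM. The brain at 0 held no *Oxt* read, which allows up to 0.151 CPM at its depth, whereas *Winnie* replicate 9 held 297 reads. Means were 6.36 ± 5.00 CPM in C57BL/6 and 9.04 ± 6.58 CPM in *Winnie* brains (SD, n = 10 each). The log2 fold change was 0.35 (SE 0.750, 95% confidence interval -1.23 to 1.92, limma FDR = 0.864, two-sided permutation p = 0.649), smaller than the spread between brains.

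*Avp* encodes vasopressin with neurophysin II, which acts on water balance in the kidney and, with corticotropin-releasing hormone, on the release of ACTH (chr2:130580620-130582554, minus strand). The *Oxt* and *Avp* genes lie tail to tail with 3565 bases between them. *Avp* ranged from 0.404 through 6.81 to 20.7 CPM in C57BL/6 brains and from 0.553 through 7.42 to 14.96 CPM in *Winnie* brains. C57BL/6 replicates 10 and 2 (0.404 and 0.917 CPM) and *Winnie* replicates 8 and 6 (0.553 and 1.95 CPM) were lowest, brains that were also low in *Oxt*. The mean was 7.21 ± 5.90 CPM in C57BL/6 and 7.78 ± 5.24 CPM in *Winnie* brains (SD, n = 10 each). The log2 fold change of 0.20 had a 95% confidence interval from -1.05 to 1.44 (SE 0.594, limma FDR = 0.908, permutation p = 0.745), and 5 of 10 *Winnie* brains lay above the C57BL/6 median. The intervals of *Oxt* and *Avp* therefore include changes past 1.5-fold in either direction.

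*Hcrt* encodes the precursor of both hypocretins (orexins), which maintain wakefulness (chr11:100761069-100762931, minus strand). It ranged from 3.80 through 5.97 to 7.80 CPM in C57BL/6 brains and from 0.163 through 7.55 to 9.77 CPM in *Winnie* brains. *Winnie* replicates 6 (0.163 CPM, 3 reads) and 8 (1.46 CPM, 29 reads) lay below all other brains, and the remaining *Winnie* brains were between 6.23 and 9.77 CPM. The mean was 5.93 ± 1.54 CPM in C57BL/6 and 6.69 ± 3.33 CPM in *Winnie* brains (SD, n = 10 each), with 8 of 10 *Winnie* brains above the C57BL/6 median. On the log2 scale the sign was the opposite, -0.13 (SE 0.424, 95% confidence interval -1.02 to 0.76, limma FDR = 0.917, permutation p = 0.791). Without *Winnie* replicates 6 and 8, left out after their values were seen, the log2 fold change was 0.45 (limma p = 0.00227, FDR = 0.0823). It was 0.22 without *Winnie* replicate 6 alone, and with all brains 0.18 by edgeR and 0.18 by DESeq2. The sign thus depended on each of replicates 6 and 8 and on the method.

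*Pmch*, the precursor of melanin-concentrating hormone, a peptide that promotes feeding and sleep, lies on chr10:88091072-88092375 (plus strand) within an overlap with *Parpbp*, and reads shared by both genes cannot be assigned here. It ranged from 15.4 through 19.2 to 26.3 CPM in C57BL/6 brains and from 2.49 through 24.0 to 34.6 CPM in *Winnie* brains. The same *Winnie* replicates, 6 (2.49 CPM) and 8 (8.45 CPM), were lowest, and replicates 9, 10 and 3 (34.6, 33.6 and 27.4 CPM) lay above every C57BL/6 brain. Means were 20.1 ± 3.84 and 21.9 ± 10.2 CPM in C57BL/6 and *Winnie* brains (SD, n = 10 each). The log2 fold change was -0.11 (SE 0.353, 95% confidence interval -0.85 to 0.63, limma FDR = 0.911, permutation p = 0.808). It was 0.35 (limma FDR = 0.200) without *Winnie* replicates 6 and 8.

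The sequences before the start sites of these 4 genes are shown because the genes moved in pairs across brains, *Oxt* with *Avp* and *Hcrt* with *Pmch*. They are RefSeq sequences on GRCm38.p6, 250 bases each, read 5′ to 3′ on the strand of the gene, and capitals mark the element nearest the start. *Oxt* is given for chr2:130575919-130576168 (plus), *Avp* for chr2:130582589-130582838 (minus), *Hcrt* for chr11:100762932-100763181 (minus) and *Pmch* for chr10:88090822-88091071 (plus).
Oxt: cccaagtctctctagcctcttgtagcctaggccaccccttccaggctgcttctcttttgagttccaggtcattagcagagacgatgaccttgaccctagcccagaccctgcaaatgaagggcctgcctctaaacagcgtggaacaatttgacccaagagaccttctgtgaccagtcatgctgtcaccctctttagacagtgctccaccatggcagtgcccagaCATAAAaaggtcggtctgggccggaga
Avp: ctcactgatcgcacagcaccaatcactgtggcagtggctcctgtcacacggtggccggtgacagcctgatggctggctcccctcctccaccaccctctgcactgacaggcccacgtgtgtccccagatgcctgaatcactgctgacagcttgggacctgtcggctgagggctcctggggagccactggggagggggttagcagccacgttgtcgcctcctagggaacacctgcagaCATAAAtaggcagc
Hcrt: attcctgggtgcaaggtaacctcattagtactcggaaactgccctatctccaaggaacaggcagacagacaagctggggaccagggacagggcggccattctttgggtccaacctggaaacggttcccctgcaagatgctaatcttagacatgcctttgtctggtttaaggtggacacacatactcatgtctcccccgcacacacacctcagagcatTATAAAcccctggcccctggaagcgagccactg
Pmch: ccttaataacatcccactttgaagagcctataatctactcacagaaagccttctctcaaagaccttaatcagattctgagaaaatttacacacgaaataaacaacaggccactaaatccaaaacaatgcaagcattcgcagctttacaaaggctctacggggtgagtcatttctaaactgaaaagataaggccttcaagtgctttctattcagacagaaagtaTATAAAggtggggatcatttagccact
*Hcrt* and *Pmch* held the letters TATAAA, first base 33 and 27 bases before the end of the window, as did *Pomc*. *Oxt* and *Avp* held CATAAA in its place, 27 and 14 bases before the end, as did *Npy*. On the strand of the gene, TATAAA was present in 7.59% and CATAAA in 5.98% of 32851 such mouse promoters. The cyclic AMP response element TGACGTCA, searched on both strands, was present in 1 of 8 neuropeptide windows with an entry and in 1.55% of all. This was the window of *Sst*, where the match lies past the annotated start of the gene. The glucocorticoid response element, searched on both strands as its palindromic consensus, matched in 0 of 8 and in 0.387% of all. These matches are descriptions of letters in the window and not measurements of factor binding.

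**Figure D2:**
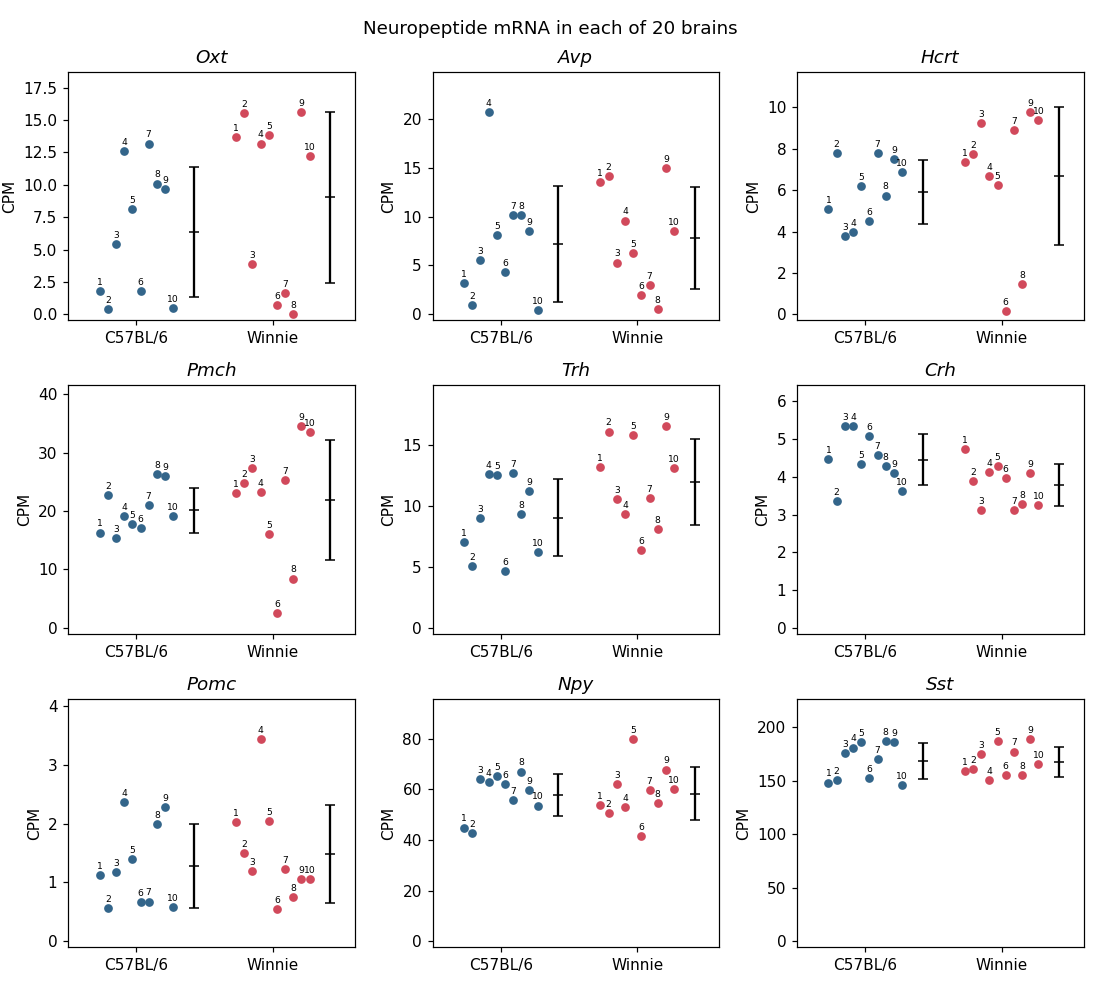
CPM of each of the 9 neuropeptide genes in every brain, with C57BL/6 brains in blue and *Winnie* brains in red, numbered by replicate (vertical axes start at 0, bars give mean ± SD, n = 10 per genotype). *Oxt* and *Avp* run from near 0 upward in both genotypes, *Hcrt* and *Pmch* are low in *Winnie* replicates 6 and 8, and *Sst* stays between 146 and 189 CPM.

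*Trh* encodes thyrotropin-releasing hormone, which drives the thyroid axis from the paraventricular nucleus and is also made elsewhere in the brain (chr6:92242061-92244650, minus strand). Its level ran from 4.64 through 9.20 to 12.7 CPM in C57BL/6 brains and from 6.40 through 11.9 to 16.6 CPM in *Winnie* brains. With means of 9.04 ± 3.17 and 11.99 ± 3.53 CPM (SD, n = 10 each), *Trh* had the largest fold change of the 9 genes, 0.41 on the log2 scale (SE 0.213, 95% confidence interval -0.03 to 0.86). The difference did not pass (limma p = 0.0679, FDR = 0.329, permutation p = 0.0715), although 8 of 10 *Winnie* brains lay above the C57BL/6 median. When single brains were left out it ran from 0.32 to 0.50. The unadjusted edgeR p on recovered reads was 0.0409 with an FDR of 0.240, while with the mean level of a list of hypothalamic genes as a covariate the log2 fold change was 0.25 (limma p = 0.143, FDR = 0.452).

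*Crh* encodes corticotropin-releasing hormone, which starts the release of ACTH and corticosterone under stress and is also made in cortical interneurons, the amygdala and the inferior olive (chr3:19693401-19695396, minus strand). It ranged from 3.36 through 4.40 to 5.35 CPM in C57BL/6 brains and from 3.11 through 3.92 to 4.74 CPM in *Winnie* brains, behind which stood 55 to 128 reads. The highest *Winnie* brain, replicate 1, was the 1 brain of its group above the C57BL/6 median, and 9 of 10 lay below it. The mean was 4.45 ± 0.670 CPM in C57BL/6 and 3.78 ± 0.566 CPM in *Winnie* brains (SD, n = 10 each), a log2 fold change of -0.21 (SE 0.0881, 95% confidence interval -0.39 to -0.03). The unadjusted p was 0.0245 by limma and 0.0298 by permutation, and the limma FDR over all genes was 0.201, so the difference did not pass the correction. The interval did not reach a 1.5-fold change.

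*Pomc* encodes the precursor of α-MSH, β-endorphin and, in the pituitary, ACTH (chr12:3954951-3960642, plus strand). It was the least abundant of the 9 genes, with 10 to 64 reads per brain. Its level ran from 0.561 through 1.15 to 2.36 CPM in C57BL/6 brains and from 0.542 through 1.21 to 3.43 CPM in *Winnie* brains. *Winnie* replicate 4, at 3.43 CPM, stood above all other brains. Means of 1.28 ± 0.706 and 1.48 ± 0.839 CPM (SD, n = 10 each) gave a log2 fold change of 0.16 (SE 0.239, 95% confidence interval -0.34 to 0.65, limma FDR = 0.792, permutation p = 0.544), or 0.03 without that brain.

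*Winnie* replicate 4 also held transcripts of hormones of the anterior pituitary, a gland that expresses *Pomc* strongly. Growth hormone (*Gh*) was at 5.41 CPM and prolactin (*Prl*) at 7.13 CPM in it. In *Winnie* replicate 8 *Gh* was at 21.4 and *Prl* at 4.98 CPM, while the highest *Gh* of a C57BL/6 brain was 1.496 CPM, and *Pomc* in *Winnie* replicate 8 was at 0.754 CPM. Of 12 listed pituitary genes, 4 had a row (*Gh*, *Prl*, *Lhb* and *Chga*, the last also a neuronal gene). Their mean log2 level ran from 1.33 to 2.26 in C57BL/6 and from 1.17 to 3.46 in *Winnie* brains, with *Winnie* replicates 8, 4 and 5 highest. The part of pituitary RNA in the *Pomc* values was not tested.

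*Npy* encodes neuropeptide Y, which stimulates feeding in the arcuate nucleus and is released by cortical and striatal interneurons (chr6:49822710-49829507, plus strand). It was at 42.6, 60.8 and 67.0 CPM in the lowest, median and highest C57BL/6 brain and at 41.6, 57.3 and 79.7 CPM in *Winnie* brains. The mean was 57.7 ± 8.46 CPM in C57BL/6 and 58.3 ± 10.4 CPM in *Winnie* brains (SD, n = 10 each), a log2 fold change of 0.01 (SE 0.103, 95% confidence interval -0.20 to 0.22, limma FDR = 0.979, permutation p = 0.927).

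*Sst* encodes somatostatin, which inhibits growth hormone release from the periventricular hypothalamus and marks a large class of cortical interneurons (chr16:23889573-23890958, minus strand). It was the most abundant of the 9 genes, at 146, 173 and 187 CPM in the lowest, median and highest C57BL/6 brain and at 151, 163 and 189 CPM in *Winnie* brains. Means of 168 ± 17.1 and 167 ± 13.7 CPM (SD, n = 10 each) differed by -0.00 on the log2 scale (SE 0.0535, limma FDR = 0.979, permutation p = 0.933). The 95% confidence interval of -0.11 to 0.10 left out a 1.5-fold change in either direction, as did that of *Npy*.

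Levels were compared between genes as RPKM, the CPM of a gene divided by the length of its exons in kilobases. On this scale the mean over 20 brains was 233 for *Sst*, 102.5 for *Npy*, 28.1 for *Pmch*, 14.3 for *Oxt*, 12.99 for *Avp*, 8.43 for *Hcrt*, 7.60 for *Trh*, 3.12 for *Crh* and 1.05 for *Pomc*. Neighbours in this order were separated beyond their range only for *Sst* above *Npy* and *Npy* above *Pmch*. *Crh* was above *Pomc* in 20 of 20 brains, and *Pmch* above *Oxt* and *Trh* above *Crh* in 19 of 20. In contrast, *Oxt* was above *Avp* in 12, *Avp* above *Hcrt* in 14 and *Hcrt* above *Trh* in 13 of 20 brains, so the order of these 4 genes changed from brain to brain.

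The spread between brains differed by more than an order of magnitude among the 9 genes. The pooled SD of log2(CPM + 0.5) within a genotype was 1.68 for *Oxt*, 1.33 for *Avp*, 0.952 for *Hcrt* and 0.793 for *Pmch*, against 0.134 for the median of the 15168 genes with a mean of at least 1 CPM. Of those genes 99.95% had a smaller SD than *Oxt*, 99.93% than *Avp*, 99.87% than *Hcrt* and 99.78% than *Pmch*, so that 6 genes of the brain varied more than *Oxt*. *Pomc* (0.559) and *Trh* (0.480) followed, above 99.41% and 99.05% of genes. *Npy* (0.238), *Crh* (0.195) and *Sst* (0.133) lay above 86.7%, 75.5% and 49.2% of genes, so *Sst* varied about as much as the median gene.

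Counting error was a small part of this spread for most of the genes. For *Oxt* the coefficient of variation of CPM was 78.7% in C57BL/6 and 72.8% in *Winnie* brains, and read counting alone would give 9.13% and 7.65%. For *Avp* the values were 81.9% and 67.3%, with 8.56% and 8.23% from counting. *Crh* was the exception, with 15.04% in C57BL/6 and 14.96% in *Winnie* brains and 10.8% and 11.8% from counting. By genotype, *Hcrt* had an SD of 0.360 in C57BL/6 and 1.30 in *Winnie* brains and *Pmch* 0.262 and 1.09, values that include *Winnie* replicates 6 and 8. The difference in spread between genotypes was not tested.

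**Figure D3:**
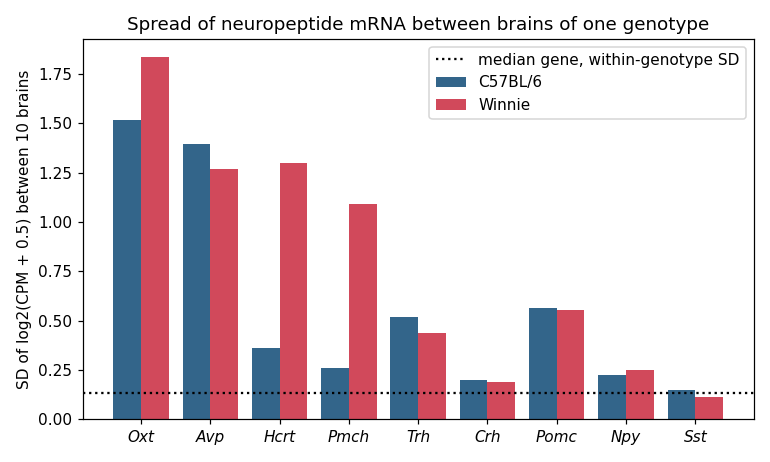
SD of log2(CPM + 0.5) between the 10 brains of each genotype (bars from 0) for the 9 neuropeptide genes, with the median within-genotype SD of the genes at a mean of at least 1 CPM as a dotted line at 0.134. *Oxt* and *Avp* are far above the line in both genotypes, *Hcrt* and *Pmch* mainly in *Winnie* brains, and *Sst* is on it.

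Whether the genes varied together was examined over the 36 pairs of the 9 genes, as deviations from the genotype mean, with permutation within genotype and Benjamini-Hochberg (BH) adjustment over the pairs. By Pearson's r, 18 pairs passed a BH-adjusted p of 0.05, and by Spearman's rho 8 pairs. *Oxt* and *Avp* moved together most evenly (r = 0.95, rho = 0.93, permutation p = 1e-05 for each, the smallest the permutations can give, BH-adjusted p = 0.00012 and 0.00018). Within C57BL/6 brains r was 0.95 and within *Winnie* brains 0.96, and it was 0.94 without the 2 brains farthest from the median. For each pair these 2 brains were picked by the level of 1 of its genes. Here they were C57BL/6 replicate 10 and *Winnie* replicate 8, farthest in *Avp*. C57BL/6 replicate 2 and *Winnie* replicate 6, also low in both genes, stayed in. *Oxt* also moved with *Trh* (r = 0.84, rho = 0.84, BH-adjusted permutation p = 0.00012 and 0.00036), with r of 0.90 within C57BL/6, 0.80 within *Winnie* and 0.83 without the 2 farthest brains.

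*Hcrt* and *Pmch*, made by separate cells of the same region, had r = 0.96 and rho = 0.90 (permutation p = 1e-05 for each, BH-adjusted p = 0.00012 and 0.00018). The relation was 0.99 within *Winnie* and 0.64 within C57BL/6 brains, where the BH-adjusted permutation p was 0.112. Without *Winnie* replicates 6 and 8, the 2 farthest from the median, r was 0.70 (BH-adjusted permutation p = 0.00569). Both pairs thus held without the 2 brains left out for each. The relation of *Trh* with *Hcrt* (r = 0.48, rho = 0.32, BH-adjusted permutation p = 0.0379 and 0.181) rested on those 2 brains, without which r was 0.01.

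*Npy* and *Sst*, the pair with wide expression outside the hypothalamus, had r = 0.77 and rho = 0.80 (BH-adjusted permutation p = 0.00063 and 0.00072), with 0.75 within C57BL/6, 0.83 within *Winnie* and 0.78 without the 2 farthest brains. The other pairs past both tests were *Avp* with *Trh* (r = 0.77, rho = 0.81), *Trh* with *Sst* (0.74 and 0.70), *Pomc* with *Oxt* (0.69 and 0.61) and *Pomc* with *Avp* (0.66 and 0.64). *Oxt* and *Hcrt*, the leading genes of the first pairs, had r = 0.51 and rho = 0.32 (BH-adjusted permutation p = 0.0674 and 0.208). The reads of all genes of a brain share a library and a dissection, so pairs of genes are not independent of each other.

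**Figure D4:**
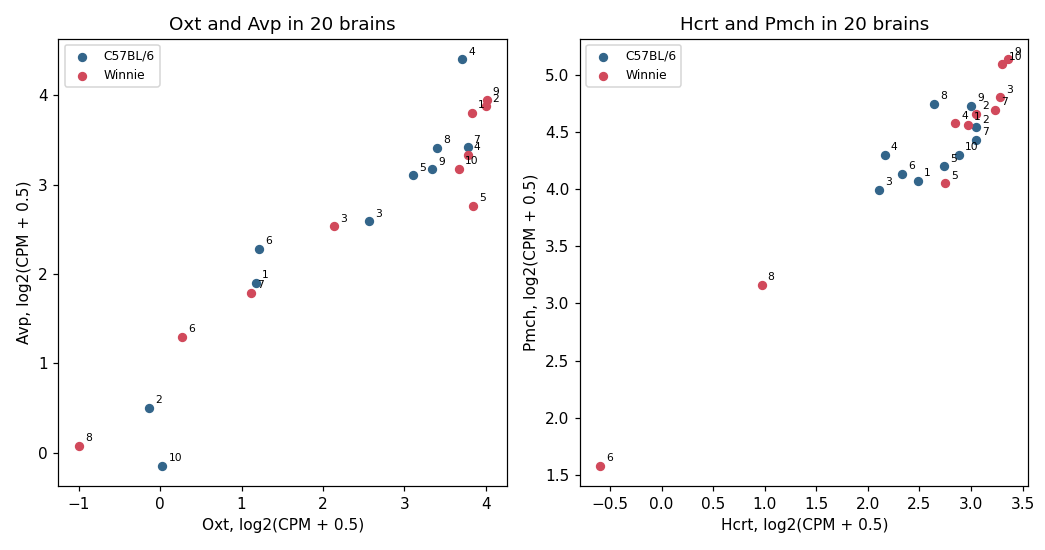
Level of *Avp* against *Oxt* (left) and of *Pmch* against *Hcrt* (right) as log2(CPM + 0.5), 1 point per brain numbered by replicate, C57BL/6 in blue and *Winnie* in red. *Oxt* and *Avp* rise together over the whole range in both genotypes (r = 0.95), while the *Hcrt* and *Pmch* relation (r = 0.96) has *Winnie* replicates 6 and 8 apart at the lower left.

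Some of the brains low in these peptides were also low in other genes of the hypothalamus. Of 30 listed genes that mark hypothalamic identity, mostly transcription factors, 26 had a row, and their mean log2 level was furthest below the mean of the 20 brains in C57BL/6 replicate 3 (-0.55) and *Winnie* replicates 6 (-0.41) and 8 (-0.36). C57BL/6 replicates 2 and 10, the lowest of their group in *Oxt* and *Avp*, were less far below that mean (-0.08 and -0.21). *Nkx2-1*, required to form the ventral hypothalamus, was at 0.271 CPM in *Winnie* replicate 6 and 1.41 CPM in replicate 8, and in C57BL/6 brains between 1.42 and 3.44 CPM. *Otp*, required for neuroendocrine neurons of the paraventricular nucleus, was at 1.14 and 1.06 CPM in these 2 brains and between 1.71 and 5.19 CPM in C57BL/6 brains. *Isl1* was likewise below its C57BL/6 range of 1.32 to 4.35 CPM (0.705 and 0.754 CPM). *Sim1* of the same list, at 0.542 and 0.956 CPM, lay within its C57BL/6 range of 0.334 to 1.92 CPM. Outside the hypothalamus, *Snap25* (2335 and 2313 CPM) and *Slc17a7*, the glutamate transporter of cortical neurons (1176 and 1246 CPM), in the same 2 brains lay within the C57BL/6 range. Other lists were low in these brains too. The mean log2 level of the striatum list was 4.577 and 4.426 in *Winnie* replicates 6 and 8 against a C57BL/6 range of 4.580 to 6.396, and that of the choroid plexus list 2.95 and 3.33 against 3.36 to 3.76. *Winnie* replicates 7 and 9 were also below that choroid plexus range (2.83 and 3.30), with *Hcrt* at 8.91 and 9.77 CPM. The hypothalamic list itself, at 2.08 and 2.13, lay within the C57BL/6 range of 1.94 to 2.76, as did the lists of thalamus, cerebellum, neocortex and hippocampus, and brainstem monoamine neurons. The part of the regional makeup of the tissue in the neuropeptide values was not tested.

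Across the 20 brains the mean level of the hypothalamic list moved with *Oxt* (r = 0.75, rho = 0.81, BH-adjusted permutation p = 0.00261 and 0.00054 over 9 genes). It moved likewise with *Pmch* (r = 0.72, rho = 0.63), *Hcrt* (0.71 and 0.57), *Avp* (0.69 and 0.80) and *Trh* (0.69 and 0.71), each past a BH-adjusted permutation p of 0.05 by both measures. Within *Winnie* brains r was 0.92 for *Oxt* and 0.92 for *Avp*, and within C57BL/6 brains 0.53 and 0.48 (unadjusted permutation p = 0.114 and 0.164). By rho the relation within C57BL/6 brains was closer, 0.73 for *Oxt* and 0.73 for *Avp* (unadjusted permutation p = 0.0201 for each). There *Pmch* had r = 0.64 and rho = 0.67 (unadjusted permutation p = 0.0451 and 0.0388), and *Trh* 0.61 and 0.78 (0.0624 and 0.0107). Without C57BL/6 replicate 3 and *Winnie* replicate 6, the brains farthest from the median of the list, r was 0.88 for *Oxt*, 0.81 for *Avp*, 0.75 for *Trh*, 0.69 for *Pmch* and 0.63 for *Hcrt*. *Winnie* replicate 8 was still included there, and for *Hcrt* rho was 0.38 (unadjusted permutation p = 0.106). Within C57BL/6 brains r for *Hcrt* was 0.53 (unadjusted permutation p = 0.112). *Sst* (r = 0.38, rho = 0.37), *Npy* (0.26 and 0.17) and *Crh* (0.05 and 0.13) did not pass, with BH-adjusted permutation p of 0.143, 0.320 and 0.841 for r. *Pomc* passed by r only (0.51, BH-adjusted permutation p = 0.0392). C57BL/6 replicate 3, lowest in the list, held the lowest *Hcrt* (3.80 CPM) and *Pmch* (15.4 CPM) of the C57BL/6 brains but not the lowest *Oxt* (5.43 CPM). With the mean level of the list as a covariate, the log2 fold change was -0.29 for *Oxt*, -0.27 for *Avp*, -0.47 for *Hcrt*, -0.40 for *Pmch* and 0.01 for *Pomc*, and none passed an FDR of 0.05 by limma.

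**Figure D5:**
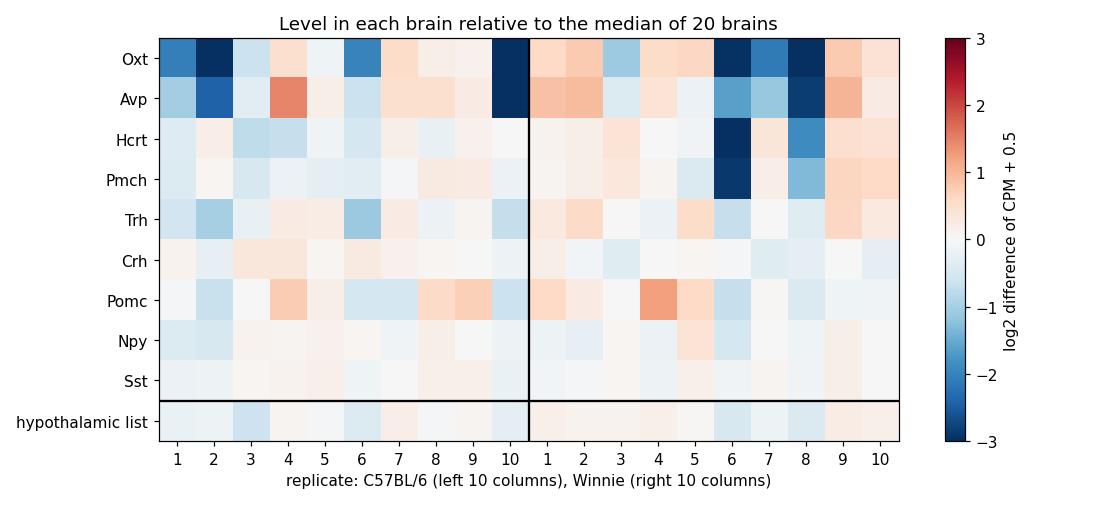
Level of the 9 neuropeptide genes in each brain, and the mean of the hypothalamic identity list in the last row, as the log2 difference of CPM + 0.5 from the median of the 20 brains (blue below and red above the median, with the largest differences drawn at the ends of the scale). *Oxt* is darkest in *Winnie* replicates 6 and 8 and C57BL/6 replicates 2 and 10, with *Hcrt* and *Pmch* dark in the *Winnie* pair of brains.

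The genes whose pattern over the 20 brains was most like that of each neuropeptide were ranked by Pearson's r among genes with a mean of at least 1 CPM, as a description. The first for *Oxt* and for *Avp* was *Fezf1*, a transcription factor of the ventromedial hypothalamus (r = 0.93 and 0.92), with *Prkch* (0.89) and *Isl1* (0.88) next for *Oxt* and *Rab7b* (0.82) among those for *Avp*. For *Hcrt* they were *Nkx2-1* (0.84), *Hdc*, the histamine-forming enzyme of the tuberomammillary nucleus (0.83), and *Rftn2* (0.80), and for *Pmch* *Hdc* (0.84), *Nkx2-1* (0.83) and *Tcirg1* (0.80). *Winnie* replicate 6 was the lowest of the 20 brains in *Hcrt* (0.163 CPM), *Pmch* (2.49 CPM), *Nkx2-1* (0.271 CPM) and *Hdc* (1.25 CPM). How far these r rest on that brain was not tested. *Fezf1* held only 2 to 34 reads per brain. In C57BL/6 replicates 2 and 10 and *Winnie* replicate 8, among the lowest in *Oxt* and *Avp*, it was at or below the floor of 3 reads. *Trh* was most like *Ano2* (0.91), *Ecel1* (0.91) and *Filip1* (0.90). *Npy* was most like *Gnao1*, *Crip2* and *Ctxn1* (0.85 each), and *Sst* most like *Krt9* (0.88), *Nsg2* (0.83) and *Crabp1* (0.82). *Crh* was nearest to *Arf3* (0.79), *A330048O09Rik* (0.75) and *Osbp2* (0.74), and *Pomc* to *Flot2* (0.79), *Samd3* (0.77) and *Nrap* (0.73). The hypothalamic genes *Fezf1*, *Isl1*, *Nkx2-1* and *Hdc* were among the 3 most like *Oxt*, *Avp*, *Hcrt* or *Pmch* and not among those of *Trh*, *Pomc*, *Npy*, *Sst* or *Crh*. This holds for the cut at 3 genes only. *Trh* moved with the mean of the hypothalamic list, which includes *Fezf1*, *Isl1* and *Nkx2-1*, as closely as *Avp* did (r = 0.69 for each).

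Of the wider peptide system, no list of neuropeptides, receptors or processing enzymes held a gene past an FDR of 0.05 by limma. Among 25 other hypothalamic neuropeptides with a row (of 32 listed), 1 was higher and 1 lower at an unadjusted p under 0.05, beside 9.53% and 8.08% of all genes. These were *Ucn3*, a urocortin acting on the second corticotropin-releasing hormone receptor (log2 fold change 0.48, limma FDR = 0.146), and *Cck*, cholecystokinin (-0.13, FDR = 0.199), and the list's lowest fold change was that of *Rln3*, relaxin 3 (-0.25, FDR = 0.692). Of 20 receptors of the 9 peptides and of Agrp, 19 had a row and 0 passed an unadjusted p of 0.05, with fold changes from -0.17 for the hypocretin receptor *Hcrtr1* (limma FDR = 0.323) to 0.18 for the melanocortin receptor *Mc4r* (FDR = 0.440). Of 15 genes of peptide processing and binding, *Lnpep*, the placental leucine aminopeptidase that cleaves oxytocin and vasopressin, was highest (48.5 and 61.0 CPM, log2 fold change 0.34, limma p = 0.00253, FDR = 0.0696), and *Mme*, neprilysin, was lowest (-0.08, FDR = 0.733). *Lnpep* was the 1 gene of its list at an unadjusted p under 0.05. The list medians were 0.04, 0.02 and 0.02, beside 0.00 over all genes.

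Markers of the cells and regions that could hold these peptides were counted in the same way. The list drawn up for cortical somatostatin and *Npy* interneurons also held genes of other interneurons, such as *Pvalb*. Its counts are therefore not those of somatostatin and *Npy* cells alone. In it 2 of 14 genes were higher in *Winnie* brains, *Reln* (log2 fold change 0.24, limma FDR = 0.0281) and *Erbb4* (0.19, FDR = 0.0355), beside 1.52% of all genes in that direction. *Pvalb* was lowest (-0.15, FDR = 0.151), and *Sst* and *Npy* themselves were at -0.00 and 0.01. Of the 26 hypothalamic identity genes 0 passed an FDR of 0.05 by limma and 5 were higher at an unadjusted p under 0.05, beside 9.53% of all genes in that direction, with a median of 0.12 and a range from *Six3* (-0.16, FDR = 0.736) to *Sim1* (0.49, FDR = 0.257). The 12 striatal genes had a median of -0.21, from *Adora2a* (-0.38, FDR = 0.725) to *Tac1* (-0.08, FDR = 0.864), and 0 passed an FDR of 0.05 or an unadjusted p of 0.05. The lists of thalamus (median 0.11), neocortex and hippocampus (-0.03), cerebellum (-0.04), brainstem monoamine neurons (-0.06), choroid plexus (-0.05) and general brain cells (-0.05) had 0 genes past an FDR of 0.05 by limma. At an unadjusted p under 0.05, 2 genes were higher in the thalamus list, 2 higher and 1 lower in that of neocortex and hippocampus, 1 higher and 1 lower in the cerebellum list, 2 lower in that of general brain cells, and 0 in the other lists, all to be read beside the 9.53% higher and 8.08% lower among all genes.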

How the data were processed

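Brain RNA of 10 *Winnie* and 10 C57BL/6 mice, grouped by the genotype label, was sequenced by the authors as paired-end polyA libraries, aligned and counted on GRCm38 with featureCounts within the RNAsik pipeline. The deposited values are CPM, which the authors made with Degust, and each sample sums to a common total. The aligner and the strand setting are not given in the sources used here. Every value (100%, tolerance 0.1 read) was a whole multiple of 1 read, so reads were recovered and used for edgeR and DESeq2 alternatives. Where the study used 8 C57BL/6 and 6 *Winnie* brains, all 20 were used here because the labels do not name these. Sample columns left unused numbered 0, and 0 pairs of samples were identical.

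Genes were compared with limma 3.58.1 (R 4.3.3, trend and robust estimates) on log2(CPM + 0.5), which understates changes of low genes, after a minimum mean CPM of 0.1. FDR is the Benjamini-Hochberg adjusted p over 17211 genes. Each sample is a separate mouse. Permutation tests were two-sided with 100000 resamples (scipy 1.17.1, Python 3.11.15). Correlations used 36 pairs because *Agrp* had no row. Coordinates came from GENCODE M21, which matched 17128 genes, and promoter sequences from RefSeq on GRCm38.p6, which held 8 of the neuropeptide genes. Motifs were searched in all 250 bases before the RefSeq start.

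The neuropeptide genes, the gene lists and the tests were chosen with earlier results of these data known. Named genes were the neuropeptides, the highest and lowest gene of each list with those past an FDR of 0.05, and the 3 genes most like each neuropeptide, of which 1 is not reported here. *Cck*, the pituitary hormones, *Nkx2-1*, *Otp* and the brain markers were named after their values were seen. The values of *Isl1* and *Sim1* in single brains were also chosen after they were seen. As alternatives, the fit was repeated with 0.1 or 1 in place of 0.5, on genes with a mean CPM of at least 1, after scaling by median ratios, in limma without robust estimates, by edgeR 4.0.16, DESeq2 1.42.0, with a replicate block, with the labelled sex, *Ddx3y* or the hypothalamic list as covariate, and with each brain left out. Leaving out *Winnie* replicates 6 and 8 together and the Spearman count of pairs were added after seeing the data. The tests were tested on simulated data.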

Additional observations from a re-analysis of the deposited data

Results flagged for a closer look

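In 18 sets of values, each of the 9 genes in each genotype, the highest or lowest brain was compared with its neighbours by Dixon's test, which by chance alone marks about 1 set in 20. It marked 2 brains. *Pomc* in *Winnie* replicate 4 was at 3.43 CPM, with the next *Winnie* brain at 2.04 CPM. *Avp* in C57BL/6 replicate 4 was at 20.7 CPM, with the next C57BL/6 brain at 10.2 CPM.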

How the results depend on the processing

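No neuropeptide gene passed an FDR of 0.05 under any alternative, and the lowest FDR was 0.0823, for *Hcrt* without *Winnie* replicates 6 and 8. Fold changes are given as log2. Without those 2 brains, left out after seeing the data, *Hcrt* was 0.45, *Pmch* 0.35 and *Sst* 0.0208, each with the sign turned, and 207 genes passed an FDR of 0.05 against 434 with all brains. *Hcrt* turned to 0.18 by edgeR and 0.18 by DESeq2, and *Pmch* to 0.13 and 0.12. With the hypothalamic list as a covariate *Npy* turned to -0.0218, *Avp* to -0.27 and *Oxt* to -0.29, while *Hcrt* was -0.47, *Pmch* -0.40, *Pomc* 0.01 and *Trh* 0.25 with the sign kept. The causes of these turns were not tested, except that *Winnie* replicates 6 and 8 held the lowest *Hcrt* and *Pmch*.

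With single brains left out, *Npy* ran from -0.0425 to 0.0609, *Avp* from -0.0943 to 0.48, *Oxt* from 0.08 to 0.74, *Sst* from -0.0270 to 0.0124, *Hcrt* from -0.22 to 0.22, *Pmch* from -0.21 to 0.18, *Pomc* from 0.03 to 0.25, *Crh* from -0.25 to -0.18 and *Trh* from 0.32 to 0.50. The count of all genes past an FDR of 0.05 ran from 169, without C57BL/6 replicate 5, to 694, without C57BL/6 replicate 10, and that past the study's threshold from 0 to 2. DESeq2 called 977 genes at an FDR of 0.05. At the study's threshold edgeR called 1, DESeq2 12 and the fit with the hypothalamic list 4. Same-numbered samples did not pair (correlation of deviations -0.41 to 0.24, 1 of 10 over 0.1, 0 best matched by their own number), and the replicate block gave 227 genes and changed no call of a neuropeptide gene. Of 36 pairs of neuropeptides, 18 passed by Pearson's r, 10 within C57BL/6, 7 within *Winnie*, 10 without the 2 farthest brains and 8 by Spearman's rho. Depth bore most on *Crh*, where read counting alone would give a coefficient of variation of 10.8% and 11.8% against 15.04% and 14.96% observed.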
